A study of Mus musculus with 32 samples.

Results

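Cathepsins and other lysosomal genes were followed through 8 groups of mouse liver and colorectal tumor samples on whole-transcriptome arrays. The genes were chosen by name: 13 cathepsins, the legumain gene Lgmn, 3 membrane glycoproteins (Lamp1, Lamp2 and Cd68), the tetraspanin Cd63, the channel Mcoln1, the 2 Niemann-Pick genes, the lysozymes Lyz1 and Lyz2, and 12 further enzymes and activators of the lysosome, 35 genes in all. They are measured by 45 probes of the 55681 on the array, which names 34821 genes. Each gene is described by 1 probe, the one above background in most samples.

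Of the liver cell types, sinusoidal endothelial cells are called E, Ito or hepatic stellate cells I, and Kupffer cells, the macrophages resident in the liver, K. Each came as a control (C) and from livers holding colorectal metastases (T, the tumor microenvironment or TME), and tumor cells of the liver metastasis (TM) and of the primary colorectal cancer (TP) made up the other 2 groups. Each of the 8 groups had 4 samples. The mice were Balb/c males of 6 to 8 weeks with no engineered allele named. TME mice received C26 colon carcinoma cells in the spleen and control mice PBS, and cells were taken 14 days later by collagenase perfusion, density gradients and adherence and were cultured for at most 24 hours. How the TM and TP cells were obtained is not given in the sources used here. Every array held a control sample in Cy3 and a TME sample in Cy5, or TM in Cy3 and TP in Cy5, so a TME or TP difference cannot be told apart from a dye difference. A first slide carried the arrays of the E and I groups and a second those of the K and tumor groups, so Kupffer against endothelial or Ito cells cannot be told apart from the slide. The methods call the replicates biological, and neither they nor the labels say whether each came from its own mouse, so p-values measure the spread between these samples.

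Lysosomes are acidic organelles in which hydrolases break down proteins, glycans, lipids and nucleic acids brought in by endocytosis, phagocytosis and autophagy. Cathepsins are their main proteases: B, C, F, H, K, L, O, S, W and Z are cysteine proteases, D and E aspartic proteases, and A a serine carboxypeptidase that also stabilizes the sialidase Neu1. Macrophages are rich in lysosomes, and cathepsins released from macrophages or tumor cells can cut extracellular matrix, which is why these genes are studied in metastasis.

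Many lysosomal genes share a short promoter motif, and the sequences that hold it are shown here because the motif was read beside the group differences further on. The transcription factor TFEB binds an E-box with the core CACGTG, and promoters from 250 bases before to 50 after the start site (RefSeq, GRCm38.p6) were available for 29 of the 35 genes. CACGTG, which reads the same on both strands, was in 9 of these 29 promoters (31%) and in 8.09% of 27025 promoters in all. The longer form GTCACGTG, which contains the first motif and was read on both strands, was in 6 of 29 (20.7%) against 2.55% of all. GAGGAA, the core bound by the macrophage factor PU.1, was in 11 of 29 (37.9%) against 31.3% of all, on either strand. A match is a description of letters, not a binding site. The 9 promoters are given as 30 bases around a core in capitals, with 1 core per gene and the position of its first base from the start site.
Ctsa (chr2:164833749-164833778, + strand, core at -12): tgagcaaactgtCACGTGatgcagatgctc
Ctsd (chr7:142387908-142387937, - strand, core at -98): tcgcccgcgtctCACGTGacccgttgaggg
Ctsf (chr19:4855074-4855103, + strand, core at -79): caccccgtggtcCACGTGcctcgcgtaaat
Ctsl (chr13:64370739-64370768, - strand, core at -236): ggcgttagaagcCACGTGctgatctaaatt
Lamp1 (chr8:13159121-13159150, + strand, core at -28): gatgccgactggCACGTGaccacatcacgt
Gaa (chr11:119267811-119267840, + strand, core at -140): tttctgtgcgatCACGTGtttgactctgac
Naglu (chr11:101070009-101070038, + strand, core at -73): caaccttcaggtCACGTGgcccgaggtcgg
Lgmn (chr12:102439124-102439153, - strand, core at -49): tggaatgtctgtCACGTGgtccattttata
Mcoln1 (chr8:3500436-3500465, + strand, core at -71): ggtcgcgcttgtCACGTGttcagttcaggc

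The labelled cell types were checked against marker lists. All 12 Kupffer cell and macrophage markers were above background in every endothelial, Ito and Kupffer sample, and their summed signal had a median of 67600 in EC, 99000 in ET, 122000 in IC, 269000 in IT, 247000 in KC and 497000 in KT, against 2120 in TM and 2040 in TP. The 10 endothelial markers had their highest median sum in EC (75400). The Ito markers did too (285000 in EC against 157000 in IC and 184000 in IT). Most of that sum was Dcn, with a mean log2 level of 18.07 in EC, where the next, Col1a2, was at 11.28. Of the 11 Ito markers, 8 were above background in all 4 IT samples and 1, Lrat, in no IT or ET sample. Hepatocyte markers were highest in Ito samples, with median sums of 160000 in IC and 327000 in IT against 27500 in EC, 16600 in ET and 79100 in KC. Of the 6 epithelial markers, Epcam and Cdh1 were above background in no tumor sample. Krt18 was above background in 4 TM and 4 TP samples, Krt8 in 2 and 4, Cldn4 in 4 and 1, and Krt19 in 0 and 1. These sums are in normalized signal on a linear scale. Because the samples are bulk RNA, fewer cells of a type and less RNA per cell cannot be told apart.

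Some samples stood apart from their groups. Over 17050 probes, the TME minus control difference of Ito array 4 correlated with the mean of the other 3 Ito arrays at r = -0.66, and that of Kupffer array 4 at r = -0.60, while the 4 endothelial arrays gave 0.51 to 0.78. Tumor arrays 1 and 4 were at -0.20 and -0.06 over the same probes. Over the 35 genes, those near background included, tumor array 4 was at -0.72, Ito array 4 at -0.40 and Kupffer array 4 at -0.61. Each sample's dye comes from the labels, whose labelling protocol also describes a Cy3 and a Cy5 product for every RNA, and the direction of Ito array 4 and Kupffer array 4 is therefore not settled. The labels were kept, and TME results in Ito and Kupffer cells are also given without array 4 and with its sign turned. IT 2 and KC 3 were low in many lysosomal genes, and IT 2 had an epithelial marker sum of 153000 against 4690 to 6450 in the other Ito samples. No spot was saturated, and 38.4% to 57.1% of spots were above background per sample, lowest in TP.

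**Figure D1:**
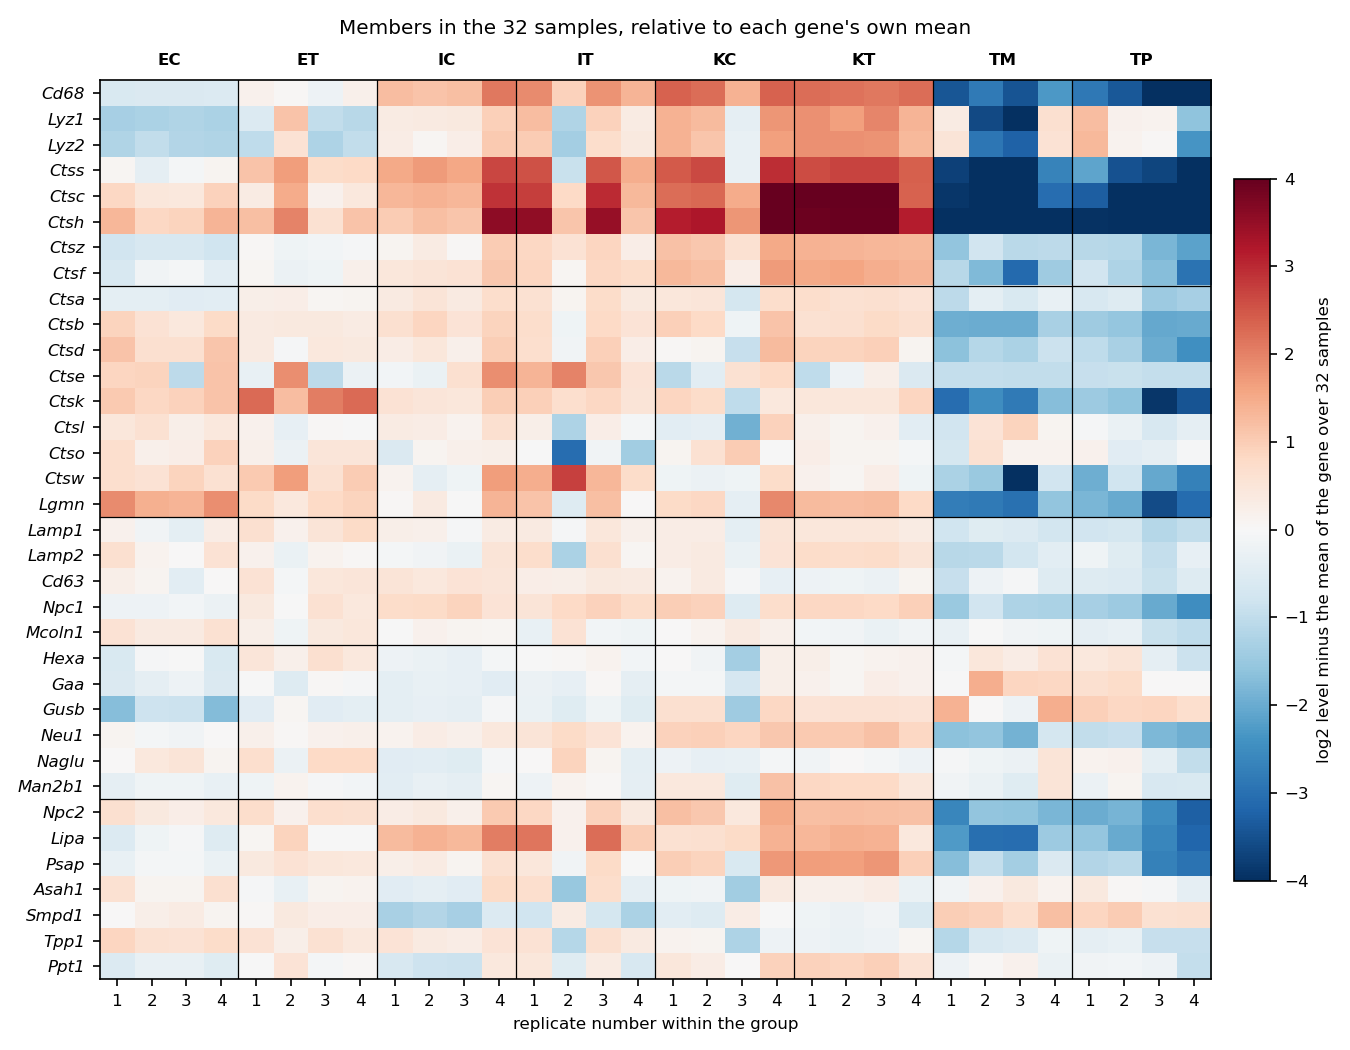
Level of each of the 35 genes (rows) in each of the 32 samples (columns, by group and replicate number), as the log2 normalized signal minus that gene's own mean over all samples (color scale from -4 to 4). The 8 tumor columns at the right are blue for Cd68, Ctss, Ctsc and Ctsh, IC 4 resembles IT 1 and IT 3 in these genes, and KC 3 and IT 2 are paler or bluer than the other samples of their groups.

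Kupffer cells differed from endothelial cells in 22 of the 35 genes (62.9%), with 17 higher and 5 lower. Over all probes 32.3% passed the same test (adjusted p under 0.05), 13.9% higher and 18.4% lower. Of the probes above background on all 4 arrays of a group 54.2% passed, 22.2% higher and 32% lower. The higher genes were the macrophage glycoprotein Cd68, lysozymes, cathepsins C, H, S, Z, F and A, and several lipid and glycan hydrolases, and the lower genes included Ctsk, the collagen-cutting cathepsin of osteoclasts. The median difference was 0.30 on the log2 scale over the 35 genes and -0.01 over all probes. All differences below are in log2 normalized signal, first group minus second, ± SE, with 8 samples of each cell type (control and TME together).

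Cd68 had the smallest adjusted p of the 35 genes in this comparison. Its log2 level was 13.42, 13.46, 13.45 and 13.50 in EC, 14.23, 14.10, 13.85 and 14.26 in ET, 16.41, 16.29, 15.42 and 16.40 in KC, and 16.27, 16.22, 16.15 and 16.28 in KT. Every Kupffer sample lay above every endothelial sample, KC 3 being the lowest of them. The difference was 2.40 ± 0.21 (adjusted p = 9.03e-10). Ctsz, a carboxypeptidase of the cysteine cathepsin family, ranged from 14.32 to 15.18 (median 14.74) in the 8 endothelial samples and from 15.75 to 16.65 (median 16.43) in the 8 Kupffer samples, again with no overlap, and differed by 1.61 ± 0.16 (adjusted p = 7.92e-09). Ctsf, another cysteine cathepsin, ranged from 6.24 to 7.08 against 7.14 to 8.57, a difference of 1.47 ± 0.27 (adjusted p = 7.67e-05).

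Ctsc, Ctsh, Ctss, Lyz1 and Lyz2 also rose toward Kupffer cells, with wider spread. Ctsc, the dipeptidyl peptidase that activates granule serine proteases, was 12.11, 11.72, 11.70 and 12.20 in EC, 11.60, 12.77, 11.44 and 11.70 in ET, 13.51, 13.58, 12.76 and 15.53 in KC, and 15.38, 15.34, 15.50 and 13.63 in KT. Most Kupffer samples fell into a higher and a lower level, with KC 4 at the level of KT 1 to 3 and KT 4 at that of KC 1 and 2, and KC 3 just below ET 2. The difference was 2.50 ± 0.69 (adjusted p = 0.00531), and 1.91 and no longer called in the Cy3 groups alone. A second Ctsc probe gave 2.95 (adjusted p = 1.82e-06 in the limma fit). Ctsh, an aminopeptidase, ranged from 13.23 to 14.62 (median 13.79) in endothelial and from 14.40 to 16.75 (median 16.21) in Kupffer samples, a difference of 2.24 ± 0.68 (adjusted p = 0.0113), which lost its call without replicate 1 or 2 and within either dye. Ctss, which trims the invariant chain of class II antigen presentation, differed by 1.75 ± 0.63 (adjusted p = 0.0318), and its call was lost without replicate 1, 2 or 4 and within either dye. The lysozymes, which cut bacterial cell walls, differed by 2.22 ± 0.53 (Lyz2, adjusted p = 0.00146) and 2.17 ± 0.60 (Lyz1, adjusted p = 0.00593); the Lyz1 call was lost within either dye, and the 2 genes are near-identical paralogs whose probes could share signal. Of the 12 macrophage markers 10 were called higher and none lower. Mrc1, not called, ran the other way, with mean log2 levels of 12.66 in EC and 11.22 in ET against 10.1 in KC and 10.34 in KT. The part of these markers in the result was not tested.

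Among the hydrolases, lipid and glycan enzymes were higher in Kupffer cells in most called cases. The glucuronidase Gusb differed by 1.15, the lipase Lipa by 1.03, the saposin precursor Psap by 0.99, the sialidase Neu1 by 0.92, the thioesterase Ppt1 by 0.77 and the mannosidase Man2b1 by 0.69. The cholesterol exporters Npc2 and Npc1 differed by 0.64 and 0.60, and Ctsa by 0.55. The lower genes were Ctsk (-1.07 ± 0.30, adjusted p = 0.00623), the tripeptidyl peptidase Tpp1 (-0.80, adjusted p = 0.00385), the heparan sulfate enzyme Naglu (-0.56), the sphingomyelinase Smpd1 (-0.43) and the calcium channel Mcoln1 (-0.35). A second probe gave another direction for Mcoln1 (0.72, adjusted p = 0.0288) and for Ctsa (-0.26), so these genes have no settled direction. The calls of Ctsk and Tpp1 each held in the groups of 1 dye only (Cy5 and Cy3), that of Naglu was lost without replicate 1 or 3 and within either dye, and that of Smpd1 was lost without any of the replicates. The abundant endopeptidases Ctsb (0.17), Ctsd (-0.16) and Ctsl (-0.42), and the membrane proteins Lamp1 and Lamp2, did not pass the test. In 5 genes (14.3%) the samples of the cell types did not overlap, against 17.2% of all probes and 31.7% of those above background. Of these genes Ctsf, Ctsz, Cd68 and Neu1 were higher and Tpp1 lower.

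**Figure D2:**
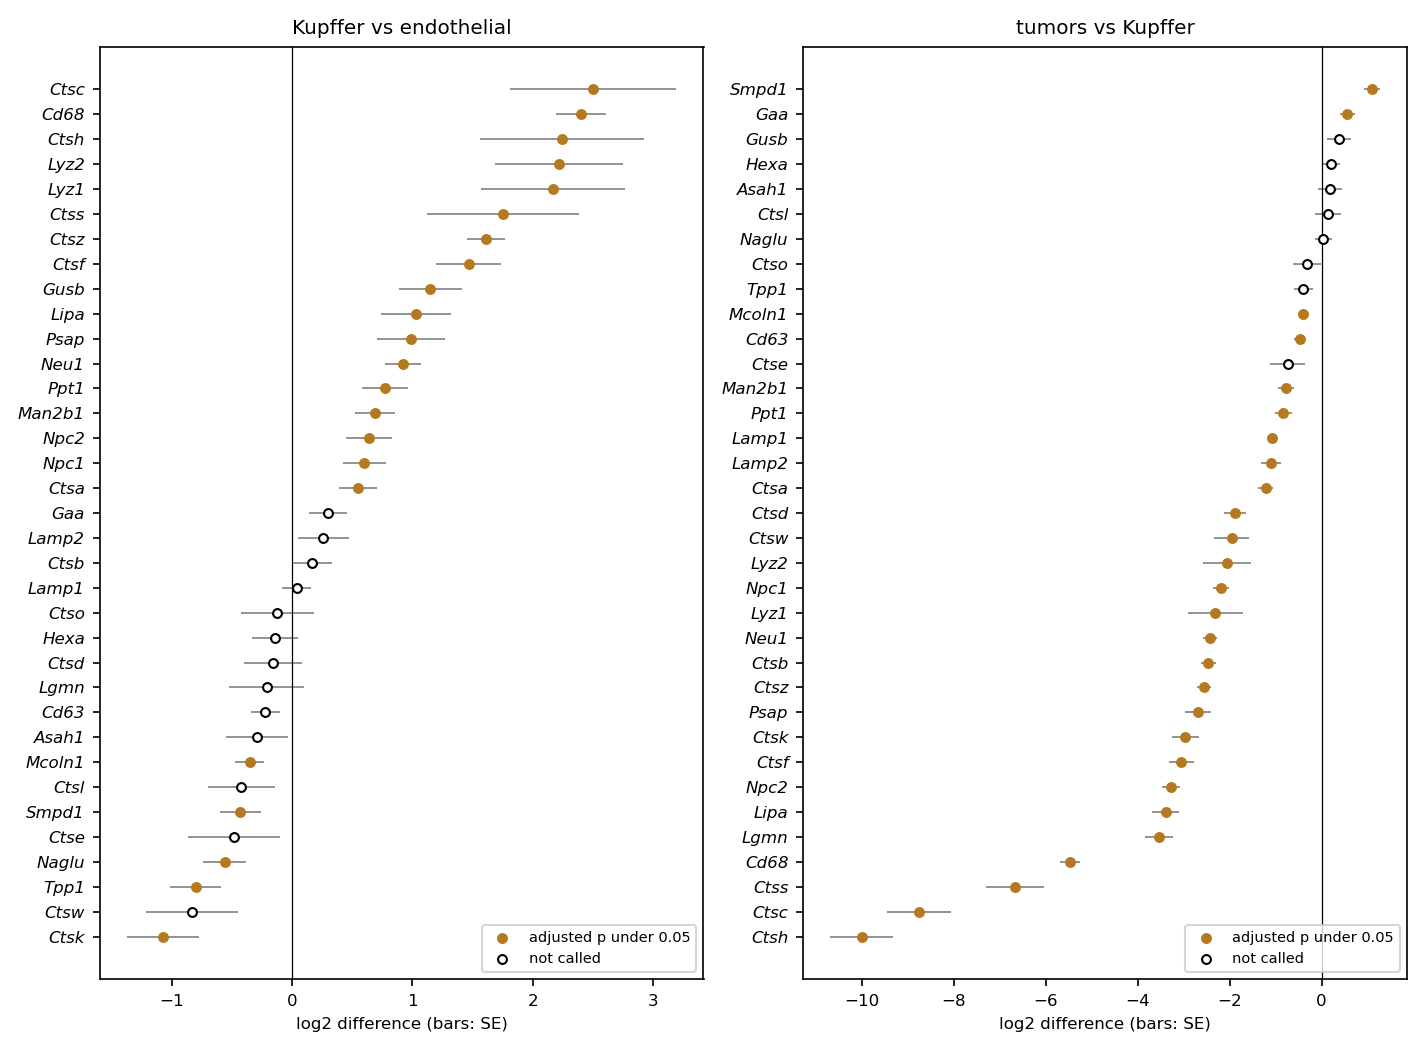
Difference of each of the 35 genes between Kupffer and endothelial cells (left) and between tumor and Kupffer cells (right), in log2 normalized signal with bars of 1 SE, 8 samples a side; filled points have an adjusted p under 0.05. Ctsc leads the left panel at 2.50 and Ctsk ends it at -1.07, while most points of the right panel lie below 0, down to Ctsh at -10.0.

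In Ito cells Cd68, Lipa, Ctsz, Ctsf, Npc1 and Ctsa were higher than in endothelial cells, and Smpd1 and Ctso lower. Endothelial against Ito cells is the comparison made within a slide, and 8 of the 35 genes passed (22.9%), 2 higher and 6 lower in endothelial cells. Of all probes 18.3% passed (10.8% higher and 7.42% lower). Of the probes above background on all 4 arrays of a group 30.6% passed (18.9% higher and 11.7% lower), a larger share than of the 35 genes. The median was -0.06 over the 35 genes and 0 over all probes. Cd68 was 15.29, 15.17, 15.25 and 16.16 in IC and 15.92, 14.95, 15.83 and 15.40 in IT. Every Ito sample was above every endothelial sample, with a difference of -1.72 (adjusted p = 8.03e-07). Cd68 was the 1 gene of 35 without overlap (2.86%, against 5.14% of all probes and 9.08% of those above background). The acid lipase Lipa, which frees cholesterol from its esters, was 11.40, 11.78, 11.91 and 11.42 in EC, 12.02, 12.85, 11.94 and 11.93 in ET, 13.21, 13.34, 13.24 and 14 in IC, and 14.07, 12.12, 14.17 and 12.92 in IT. Ito samples were higher except IT 2, which lay within the endothelial range, and the difference was -1.48 (adjusted p = 0.00044). Ctsz (-0.89), Ctsf (-0.82), Npc1 (-0.66) and Ctsa (-0.59) were lower in endothelial cells as well, though the call of Ctsf was lost without any of the replicates and those of Lipa and Ctsz were lost in the Cy5 groups alone. Smpd1 went the other way: it ranged from 12.05 to 12.43 in endothelial and from 10.72 to 12.36 in Ito samples, with IT 2 the highest of the latter, and differed by 1.06 (adjusted p = 3.72e-05). Ctso, above background in 2 of the 4 IT samples, differed by 0.96, and its call was lost without replicate 1 or 4, with only the groups compared fitted and in the methods' t-test. Not called were Lyz1 (-1.23), Lyz2 (-1.21), Ctss (-1.12), Ctsk (0.79), Ctsd (0.13), Ctsl (0.13) and Ctsb (-0.10). Of 18 alternatives Ctsk gained a call in 6, Lyz2 in 3, Lyz1 in 2 and Ctsb in 1, in the same direction. Among them were the fit on only the groups compared and the methods' t-test, for all but Ctsb. Ctss, Ctsd and Ctsl gained none. Second probes of Ctsc (-1.29, adjusted p = 0.0261) and Gusb (-0.62, adjusted p = 0.0218) were called lower in endothelial cells in the limma fit, while the probes used were not. Here 6 of the 12 macrophage markers were lower and none higher in endothelial cells, and all 10 hepatocyte markers were lower; the part of either in these differences was not tested.

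Kupffer against Ito cells gave 11 calls of 35 (31.4%), 9 higher and 2 lower, against 25.3% of all probes (12.5% higher and 12.8% lower). Of the probes above background on all 4 arrays of a group 41.9% passed, 20.2% higher and 21.7% lower, a larger share than of the 35 genes. The median was 0.42 over the 35 genes and -0.01 over all probes. The higher genes were Ppt1 (0.91), Psap (0.84), Ctso (0.84), Man2b1 (0.72), Ctsz (0.72), Cd68 (0.68, adjusted p = 0.015), Smpd1 (0.62), Neu1 (0.62) and Npc2 (0.60). Cd63, a tetraspanin of late endosomes, was lower (-0.45), and so was Ctse, which was above background in none of the 8 Kupffer and 1 of the 8 Ito samples, a difference of at least 1.1-fold. Cd68 lost its call without replicate 1 or 2, Psap without replicate 1, 2 or 4, Man2b1 without replicate 1 and Cd63 without replicate 4. Ctse lost it without replicate 1, 2 or 4, in the methods' t-test and after normexp background correction, and Ctso without any of the replicates. The calls of Cd68 and Cd63 were also lost within either dye, and those of Psap, Man2b1, Ctse and Ctso in the Cy3 groups alone. Psap and Ctso lost theirs in the methods' t-test as well. A second Cd68 probe was not called (0.81, adjusted p = 0.0852 in the limma fit). Ctsc, Ctsh, Ctss and the lysozymes, which had wide gaps to endothelial cells, were not called here on the probes used. Ctsc was at 1.29 (adjusted p = 0.186), Ctsh at 1.39 (adjusted p = 0.147), Lyz2 at 1.02 (adjusted p = 0.172), Lyz1 at 0.94 and Ctss at 0.64. Second probes of Ctsc (1.66, adjusted p = 0.0028) and Gusb (0.79, adjusted p = 0.00266) were called higher in Kupffer cells in the limma fit, so Ctsc depends on the probe. The remaining endopeptidases were near 0 or slightly lower, with Ctsb at 0.06, Ctsd at -0.03, Ctsk at -0.28 and Ctsl at -0.29. Ctsh was 13.64, 13.82, 13.73 and 16.21 in IC, 16.18, 13.72, 16.11 and 13.73 in IT, 15.76, 15.87, 14.40 and 16.75 in KC, and 16.55, 16.58, 16.58 and 15.75 in KT. IC 4, IT 1 and IT 3 were at the Kupffer level and the other 5 Ito samples at the endothelial level. Macrophage marker sums split the same way, from 414000 to 495000 in those 3 samples and from 43600 to 132000 in the other 5, and their part was not tested. Neu1 was the 1 gene of 35 (2.86%) whose Kupffer and Ito samples did not overlap, against 8.08% of all probes and 13.1% of those above background. Without array 4 of both cell types 7 genes were called, and the choice of that setting was made after seeing the data.

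**Figure D3:**
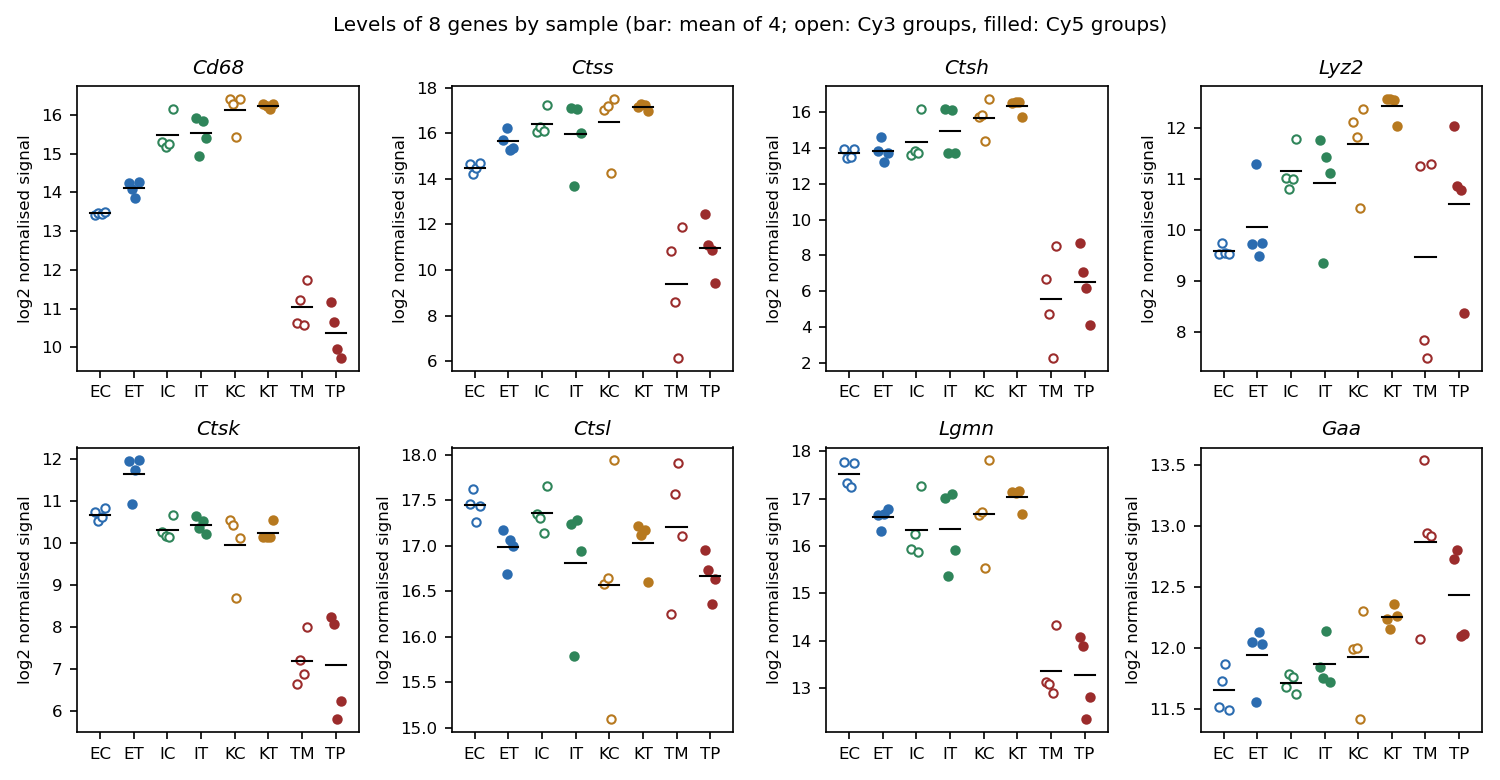
Log2 normalized signal of 8 genes in every sample, by group (x axis), with a bar at the mean of 4; open circles are the Cy3 groups and filled circles the Cy5 groups, and each panel has its own y axis, which does not start at 0. Cd68 climbs from 13.42 to 13.50 in EC to 15.42 to 16.41 in KC and falls to 9.73 to 11.75 in the tumor samples, while Ctsl overlaps between tumor and liver samples and Lgmn is lower in ET than in EC.

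The tumor samples stood farthest from the liver cells. Of the 35 genes, 27 (77.1%) differed between tumor and Kupffer samples, 25 lower and 2 higher in tumors, against 50.7% of all probes (29.9% higher and 20.7% lower) and 75.3% of the probes above background on all 4 arrays of a group. The median difference was -1.88 over the 35 genes and 0.10 over all probes. Both cell types lay on the same slide with both dyes in equal number. Of the means of the 4 cell types, counting TM and TP together, the mean was lowest in tumors for 25 of the 35 genes and highest in Kupffer cells for 16, in endothelial cells for 9, in Ito cells for 6 and in tumors for 4.

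The cathepsins Ctsh, Ctsc and Ctss and the glycoprotein Cd68 had the widest gaps of the 35 genes. Ctsh fell from 14.40 to 16.75 in Kupffer samples to 6.69, 4.71, 2.27 and 8.55 in TM and 8.67, 7.05, 6.20 and 4.10 in TP, and was above background in 5 of the 8 tumor samples. Every tumor sample was far below every Kupffer sample, and the difference was -10.0 ± 0.68 (adjusted p = 6.43e-13). Its size rests in part on signals not above background and ran from -10.51 to -8.36 over the alternatives. Ctsc, also above background in 5 of 8, was 7.37, 2.35, 2.22 and 8.23 in TM and 7.96, 5.83, 6.26 and 4.99 in TP, a difference of -8.75 with the same limit (-9.41 to -7.03 over the alternatives), and a second Ctsc probe, above background in no tumor sample, gave at least 8.9-fold. Ctss was at 14.28 to 17.51 in Kupffer samples and was 10.83, 8.59, 6.14 and 11.90 in TM and 12.47, 11.08, 10.88 and 9.42 in TP, a difference of -6.67 or 102-fold. TM 4 and TP 1 were the highest tumor samples in each of these genes, and TM 3 was the lowest. Cd68 was 10.62, 11.23, 10.58 and 11.75 in TM and 11.17, 10.66, 9.96 and 9.73 in TP, lower than in Kupffer cells by 44.2-fold (log2 -5.47, adjusted p = 3.04e-18), with samples much closer to each other than for Ctss.

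Of the other proteases, legumain (Lgmn), which cuts after asparagine and processes cathepsins, differed by -3.54 (11.6-fold), Ctsf by -3.05 (above background in 6 of 8 tumor samples), Ctsk by -2.96, Ctsz by -2.56, Ctsb by -2.46, Ctsd by -1.88 and Ctsa by -1.22. Ctsw, known from cytotoxic lymphocytes, differed by -1.95 and was above background in 2 of 8 tumor samples. Among lipid and glycan genes Lipa differed by -3.39 (10.4-fold), Npc2 by -3.28 (9.74-fold), Psap by -2.69, Neu1 by -2.43, Npc1 by -2.19, Ppt1 by -0.83 and Man2b1 by -0.77. Of the membrane proteins beside Cd68, Lamp2 was at -1.1, Lamp1 at -1.07, Cd63 at -0.48 and Mcoln1 at -0.40, and second probes gave -2.32 for Lamp2 and -1.01 for Mcoln1, the latter above background in 2 of 8 tumor samples. Lyz1 (-2.31) and Lyz2 (-2.06) were also lower, with overlap. Lyz1 ranged from 7.33 to 13.53 in tumor and from 11.92 to 14.25 in Kupffer samples, and Lyz2 from 7.49 to 12.03 and from 10.42 to 12.56. The Lyz1 call was lost in the Cy5 groups alone.

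A smaller set did not follow. Smpd1, the acid sphingomyelinase, was 13.03, 12.96, 12.70 and 13.24 in TM and 12.90, 13.06, 12.64 and 12.69 in TP against 11.44 to 12.35 in Kupffer samples, so that every tumor sample was higher (1.09, adjusted p = 2.63e-06). Gaa, the glycogen-degrading glucosidase, was higher by 0.56 (adjusted p = 0.00381), by 0.18 and not called in the Cy5 groups alone, and not called without replicate 2. Gusb (0.38), Hexa (0.20), Asah1 (0.19), Ctsl (0.14, adjusted p = 0.709) and Naglu (0.04) did not pass. For Gusb a second probe gave -1.20 (adjusted p = 4.85e-06), and for Ctsl scaling each channel to its 75th percentile gave 0.99 (adjusted p = 0.00381), a scaling that moved the median of all probes to 0.55. Ctsl, an endopeptidase, was 16.25, 17.57, 17.91 and 17.11 in TM and 16.95, 16.73, 16.36 and 16.64 in TP, and these values overlapped those of all the liver cells. In 16 of 35 genes (45.7%) tumor and Kupffer samples did not overlap, against 26.3% of all probes and 48% of those above background. All 12 macrophage markers were lower in tumors, at a median of -9.10, and Clec4f and Timd4 were above background in no tumor sample; their part in the differences was not tested.

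Within the 8 tumor samples the spread of several genes was wide and shared. In TM the SD exceeded 1 for Ctsc, Lyz1, Ctsh, Ctss, Lyz2 and Ctsw, and in TP for Ctsh, Lyz2, Ctsc, Ctss, Ctsk and Lyz1, while in KT no gene of the 35 reached an SD of 1. Lyz1 was 12.61, 8.69, 7.33 and 12.94 in TM and 13.53, 12.47, 12.43 and 10.69 in TP. TP 1 and TM 4 were again highest and TM 3 lowest. Over the 8 tumor samples Ctss correlated with Lyz1 at r = 0.98, Ctsh at 0.96, Lyz2 at 0.93, Ctsc at 0.92 and Gusb at 0.87, with Cd68 at 0.28, and with Gaa at -0.29, Lamp1 at -0.45, Ctsl at -0.66 and Cd63 at -0.68. These are descriptions over 8 samples that share slide and scan, with no test. The summed macrophage markers ran alongside, at 3240, 1010, 754 and 5200 in TM and 3570, 2160, 1920 and 874 in TP, with 8, 3, 3 and 9 of the 12 markers above background in TM and 8, 7, 6 and 1 in TP. Csf1r, the receptor that macrophages need to survive, was 10.94, 9.71, 9.32 and 11.66 in TM and 10.89, 10.44, 10.14 and 9.15 in TP. The part of these markers in the spread was not tested.

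**Figure D4:**
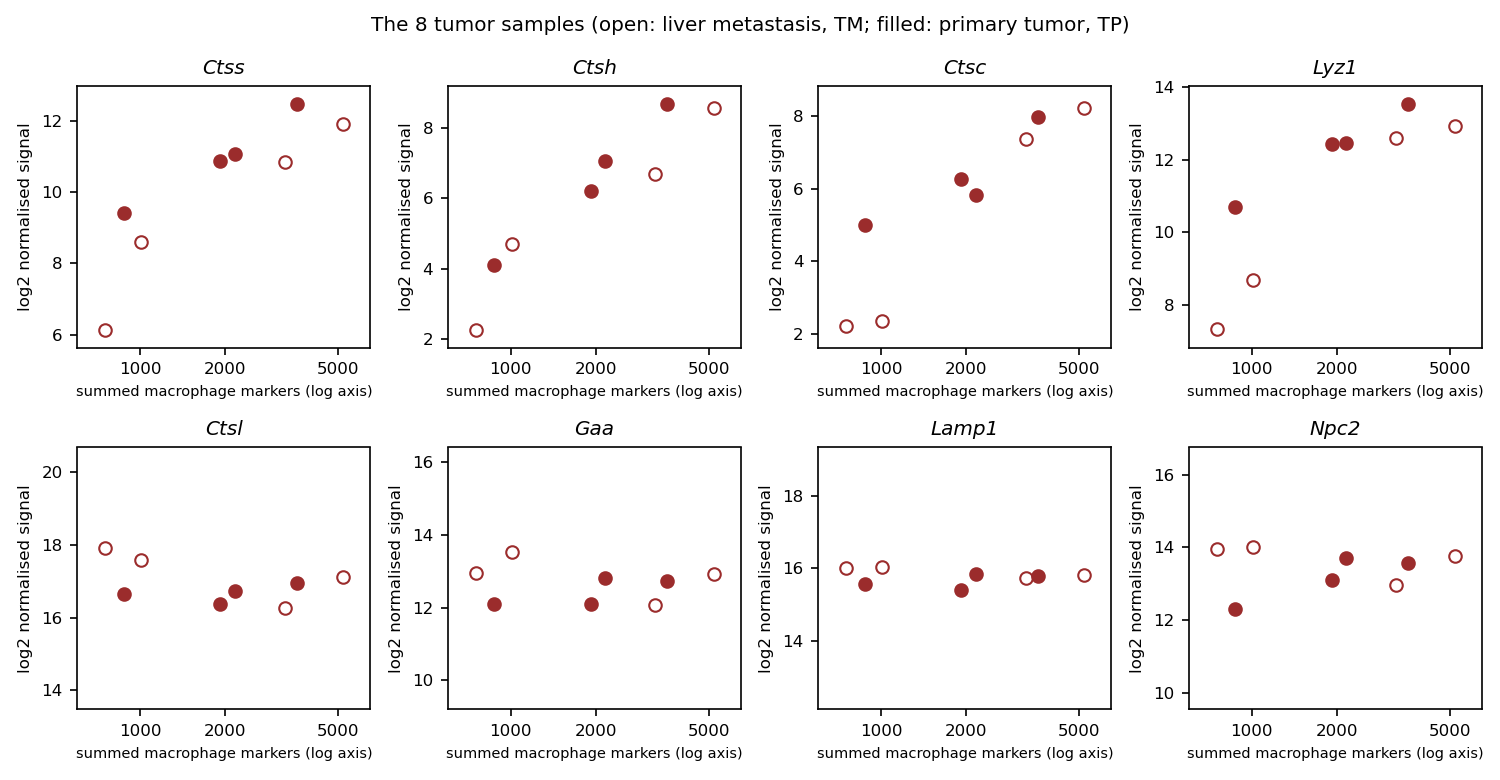
Log2 normalized signal of 8 genes in the 8 tumor samples (y axis, open circles TM and filled circles TP) against the summed normalized signal of 12 macrophage markers in the same sample (x axis, log scale). Ctss, Ctsh, Ctsc and Lyz1 are lowest in TM 3, where the marker sum is 754, and highest in TP 1 or TM 4, where it is 3570 and 5200, while Ctsl, Gaa, Lamp1 and Npc2 show no such order.

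Primary tumor against liver metastasis gave no call among the 35 genes, against 2.91% of all probes, and 5 had an unadjusted p under 0.05 in the limma fit. The median was -0.16 over the 35 genes and -0.01 over all probes. Lyz1 was at 1.89 (adjusted p = 0.265), Ctss at 1.60 (adjusted p = 0.391) and Lyz2 at 1.04, TP minus TM, and Psap was at -0.82, Cd68 at -0.67 (adjusted p = 0.245), Npc1 at -0.63 and Mcoln1 at -0.47 (adjusted p = 0.129). Ctsl was at -0.54, Ctsd at -0.47, Ctsk at -0.10 and Ctsb at 0.04. On arrays 1 to 4 Lyz1 differed by 0.92, 3.78, 5.09 and -2.25 and Ctss by 1.64, 2.49, 4.74 and -2.48. Without array 4 Lyz1 was at 3.26 (adjusted p = 0.0738), Ctss at 2.96 (adjusted p = 0.116) and Lyz2 at 2.36 (adjusted p = 0.116), none called. The samples of TP and TM overlapped in all 35 genes, whereas 10.7% of all probes had no overlap. The dye cannot be told apart from the group here.

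The TME comparisons ask whether lysosomal genes changed in liver cells that had lived beside metastases. In endothelial cells none of the 35 genes passed, against 1.17% of all probes, and 10 had an unadjusted p under 0.05. The median was 0.27 over the 35 genes and 0.01 over all probes. ET and EC samples nevertheless did not overlap in 16 genes (45.7%), 12 higher and 4 lower in ET, against 13.2% of all probes (7.06% higher and 6.12% lower) and 22% of those above background. Ctss was 14.64, 14.20, 14.48 and 14.68 in EC and 15.72, 16.25, 15.29 and 15.37 in ET, each ET sample above each EC sample (1.16 ± 0.88, adjusted p = 1). Ctsk was 10.74, 10.52, 10.63 and 10.83 in EC and 11.96, 10.93, 11.75 and 11.97 in ET, with ET 2 nearest to the controls (0.97 ± 0.42, adjusted p = 0.507). Lgmn was 17.77, 17.33, 17.24 and 17.75 in EC and 16.65, 16.32, 16.68 and 16.79 in ET, every ET sample below the controls (-0.91 ± 0.44, adjusted p = 0.63).

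The SE of this fit is pooled over 8 groups, and the endothelial groups were among the tightest, with a median SD of 0.18 in EC and 0.25 in ET against 0.63 in KC. Fitted on the endothelial groups alone, 6 of the 35 genes passed, against 5.2% of all probes: Ctsz (0.65, adjusted p = 0.00368), Ctsa (0.58, adjusted p = 0.00353), Psap (0.64, adjusted p = 0.00597), Cd68 (0.65, adjusted p = 0.0111) and Ctss (adjusted p = 0.0293) higher, and Lgmn (adjusted p = 0.0206) lower. The methods' t-test on the same values called 5 of them, all but Ctss, after Benjamini-Hochberg adjustment. After loess normalization within each array the pooled fit called only Lamp1 (0.68, adjusted p = 0.0373). The shares of all probes called by the t-test and by this fit are not given here, so their counts do not set the 35 genes apart. Besides those named, Gusb (0.98), Lyz1 (0.90), Hexa (0.76), Lipa (0.56), Npc1 (0.53) and Ppt1 (0.53) were higher in ET without overlap and Ctsd (-0.59), Ctsl (-0.46) and Ctsb (-0.29) lower, none called, and Lyz2 was at 0.47. Macrophage marker sums were 57500 to 81200 in EC and 80800 to 121000 in ET, neutrophil sums 614 to 1050 and 3410 to 7560, and T and NK cell sums 3870 to 4120 and 10400 to 28200. None of these markers was called. The macrophage markers Clec4f, Timd4, C1qb, C1qc and Mrc1 had lower means in ET and the others, such as the abundant Cd5l, higher ones. Of the T and NK cell markers Gzma had the highest mean in ET (11.04 in EC and 13.65 in ET), while Cd3e was at 9.14 in both and the others were higher in ET. The part of the markers in these values was not tested.

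In Ito cells no gene of the 35 passed in the TME comparison, against 0.3% of all probes, and 2 had an unadjusted p under 0.05. The median was 0.02 over the 35 genes and 0 over all probes. Ctsw was 6.43, 5.94, 6.12 and 7.98 in IC and 7.74, 9.04, 7.61 and 7.04 in IT. Arrays 1 to 3 were higher in IT by 1.32, 3.1 and 1.49 and array 4 lower by 0.94, which gave 1.24 (adjusted p = 0.43). Without array 4 of Ito and Kupffer cells 3 genes passed, against 7.91% of all probes: Ctsw (1.97, adjusted p = 0.0352), Smpd1 (0.87, adjusted p = 0.0209) and Ppt1 (0.87, adjusted p = 0.0202). For Ctsw and Smpd1 the widest of the 3 remaining differences was that of array 2 (3.1 and 1.49), which holds IT 2, the sample with the high epithelial marker sum, whose part was not tested. With the sign of array 4 turned, these 3 and Ctsz (0.63, adjusted p = 0.0253) passed, against 10.7% of all probes. Ctsl (-0.56), Ctss (-0.47), Ctsb (-0.27), Lyz2 (-0.24), Lyz1 (-0.19), Ctsd (-0.05), Cd68 (0.06) and Ctsk (0.12) did not pass under the labels as given. The 1 gene (2.86%) without overlap of IC and IT compares with 9.02% of all probes. T and NK cell marker sums were 1610 to 12700 in IC, highest in IC 4 as Ctsw was, and 2160 to 28400 in IT; their part was not tested.

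In Kupffer cells no gene of the 35 passed either, against 0.435% of all probes, and 1 had an unadjusted p under 0.05. The median was 0.33 over the 35 genes and 0 over all probes. Ctsd, the main aspartic protease of the lysosome, was 15.62, 15.67, 14.65 and 16.81 in KC and 16.44, 16.46, 16.51 and 15.67 in KT. Array 4 ran against the other 3, with KC 4 the highest and KT 4 at the level of KC 1 and 2, and the difference was 0.58 (adjusted p = 0.748). Without array 4 it was 1.16 (adjusted p = 0.0456), the 1 call among the 35 genes, against 3.93% of all probes. With its sign turned Ctsd (1.15, adjusted p = 0.0113) and Man2b1 (0.69, adjusted p = 0.0406) passed, against 4.90% of all probes. Marker sums moved with Ctsd. The macrophage sum was 129000 to 253000 in KC 1 to 3 and 658000 in KC 4, against 496000 to 501000 in KT 1 to 3 and 260000 in KT 4. The neutrophil sum was 2570 to 3130 in KC 1 to 3 and 13300 in KC 4, against 10800 to 11600 in KT 1 to 3 and 2840 in KT 4. Their part was not tested. Lyz2 (0.74), Lyz1 (0.70), Ctss (0.66), Ctsl (0.46), Ctsk (0.30), Cd68 (0.10) and Ctsb (-0.02) did not pass. Mcoln1 was the 1 gene (2.86%) whose KC and KT samples did not overlap, at 12.53, 12.64, 12.88 and 12.70 in KC and 12.39, 12.36, 12.23 and 12.36 in KT (-0.35), against 7.07% of all probes.

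**Figure D5:**
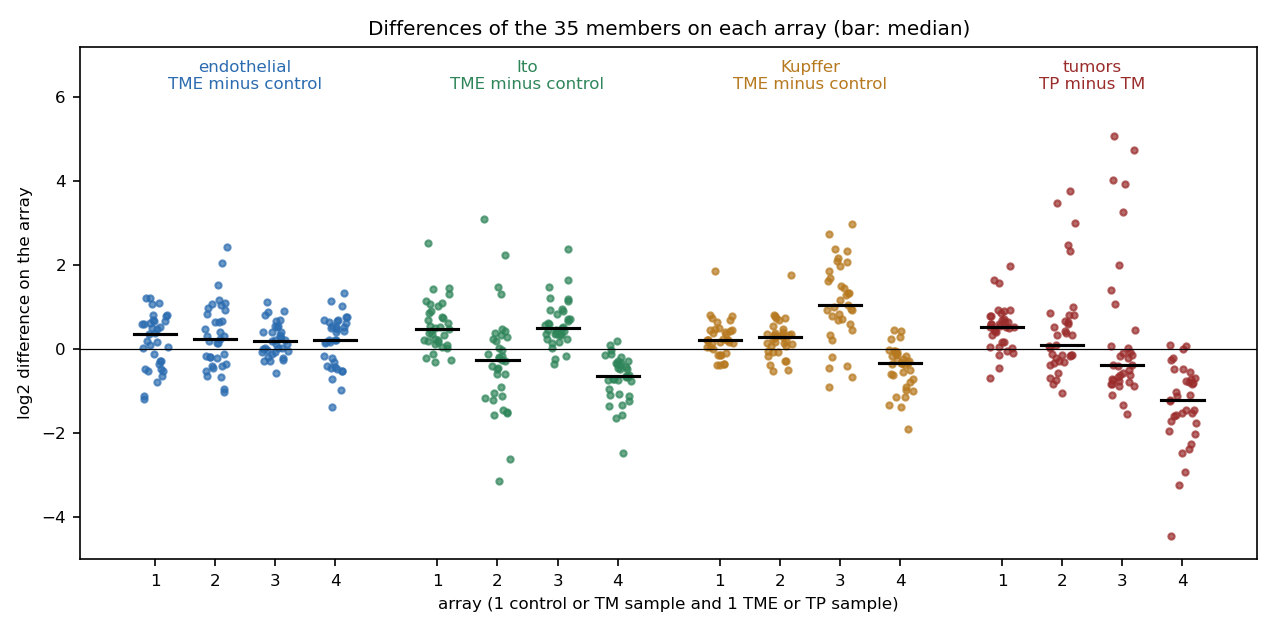
Log2 difference of each of the 35 genes on each of the 16 arrays, TME minus control for the liver cells and TP minus TM for the tumors, with a bar at the median of the 35. The 4 endothelial medians are 0.36, 0.25, 0.20 and 0.23, while array 4 has a median of -0.64 in Ito cells, -0.34 in Kupffer cells and -1.21 in the tumors.

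No difference of the TME change between cell types passed for any of the 35 genes, against 0.117% of all probes for endothelial minus Ito, 0.0862% for Kupffer minus endothelial and 0.00359% for Kupffer minus Ito. In the limma fit 1, 2 and 0 genes had an unadjusted p under 0.05. Ctsd was 1 of these: its change was -0.59 in endothelial and 0.58 in Kupffer cells, a difference of 1.18 ± 0.48 (unadjusted p = 0.0212, adjusted p = 1). With the sign of array 4 turned in Ito and Kupffer cells, Ctsd passed in this comparison, against 0.735% of all probes. Lgmn, lower in ET, differed between Kupffer and endothelial cells by 1.27 ± 0.62 (adjusted p = 1). The differences share cell types, and so are not independent of each other.

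The genes around the 35 were read from lists. Of 26 further acid hydrolases, 10 were higher and 2 lower in Kupffer than in endothelial cells, with the phosphatase Acp5 (2.28), the GM2 activator Gm2a (1.85) and the amidase Naaa (1.84) in front and Idua (-1.27) and Arsa (-1.18), which degrade glycosaminoglycans and sulfatides, at the other end. Against Kupffer cells 14 of them were lower in tumors, among them Acp5 (-9.02), Acp2 (-3.47) and the sulfamidase Sgsh (-3.27), and 7 were higher, among them Idua (3.20) and Arsb (2.21). In the TME comparison Sgsh passed in endothelial (0.84, adjusted p = 0.00417) and Kupffer cells (0.85, adjusted p = 0.00627) and was at 0.52 in Ito cells (adjusted p = 0.233). Of 16 further membrane proteins, only Scarb2, the receptor that carries glucocerebrosidase to the lysosome, passed in the TME comparison of endothelial cells (-1.14, adjusted p = 0.0028).

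In Kupffer against endothelial cells 7 membrane genes were higher, with the metal transporter Slc11a1 (3.05), Laptm5 (2.59) and the nucleoside transporter Slc29a3 (2.36) leading, and 3 lower, with the sialic acid exporter Slc17a5 at -1.51. Tumors were lower in 10 of them, as in Slc15a3 (-9.46), Slc11a1 (-7.99) and Laptm5 (-6.39), and higher in 4, as in Abca2 (4.03) and Slc17a5 (3.71). Of 16 subunits of the proton pump that acidifies the lysosome, 9 were higher and 1 lower in Kupffer than in endothelial cells (Atp6v1b2 at 1.45), and 13 were lower and none higher in tumors than in Kupffer cells (Atp6v1b2 at -2.46, Atp6v0c at -2.05). Of 10 genes of the mannose 6-phosphate route that delivers hydrolases, 5 were higher in Kupffer than in endothelial cells (Gnptab at 1.37) and 5 lower in tumors (the receptor M6pr at -2.08). These shares can be read beside the 32.3% and 50.7% of all probes called in the same comparisons, and the 54.2% and 75.3% of those above background.

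Of 12 cystatins and other cathepsin inhibitors, 4 were higher in Kupffer than in endothelial cells, as Cst7 (1.93) and Cst3 (1.06), and 2 lower, as Serpina3n (-1.48). Tumors were lower in 7, as in Cst7 (-6.63), and higher in 1, Cst6, which was above background in no Kupffer sample and at least 22-fold higher in tumors (mean log2 levels of 10.38 and 2.61). Of the 9 placental cathepsins 1 was above background. Of 4 neutrophil granule genes none was called in a TME comparison and 1 was higher in Kupffer than in endothelial cells. They were the serine proteases Ctsg, Elane and Prtn3, which Ctsc activates, and the peroxidase Mpo. Tfeb, the factor of the E-box shown above, was higher in Kupffer than in endothelial cells (1.52, adjusted p = 9.81e-08) and in Ito cells (1.52), and lower in tumors than in Kupffer cells (-1.56). Its relatives Tfe3 (0.82, 0.72 and -1.52) and Mitf (2.72, 0.93 and -0.75) were called in the same directions in the same 3 comparisons. Zkscan3, a repressor of lysosomal genes, was not called in the comparisons made and was at -0.72 in endothelial TME (adjusted p = 0.0584).

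Genes whose promoters hold CACGTG were read beside those whose promoters do not. The 6 genes without a promoter, Ctsh among them, are in neither count. Of the 9 genes shown with the core, 2 were higher and 2 lower in Kupffer than in endothelial cells (median -0.16), against 13 higher and 3 lower of the 20 without it (median 0.84). Among the calls of the 9, Ctsa and Mcoln1 have no settled direction, and that of Naglu was lost without replicate 1 or 3 and within either dye. Limits given above also hold for calls among the 20, as for Ctss, Lyz1 and Smpd1, and for calls in the comparisons that follow. In Kupffer against Ito cells none of the 9 was called (median -0.03), and of the 20 others 9 were higher and 1 lower (median 0.66). In tumors against Kupffer cells 6 of the 9 were lower and 1 higher (median -1.07), and 15 of the 20 lower and 1 higher (median -2.18). In endothelial against Ito cells 2 of the 9 were lower and none higher (median 0.13), and of the 20 others 2 were higher and 3 lower (median -0.19). Of all probes 32.3%, 25.3%, 50.7% and 18.3% were called in these comparisons, in this order. Of those above background the shares were 54.2%, 41.9%, 75.3% and 30.6%. In endothelial TME against control no gene of either set was called. Samples did not overlap in 1 higher and 3 lower of the 9, and in 10 higher and 0 lower of the 20. Of all probes 7.06% were higher and 6.12% lower without overlap. These are descriptions of 29 genes, with no test.

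Across the 24 liver samples some pairs of the 35 genes ran closely together. Cd68 and Ctsz correlated at r = 0.96, Ctsc and Ctsh at 0.95, Cd68 and Ctsf at 0.94, Psap and Man2b1 at 0.91, Asah1 and Lgmn at 0.88, and the endopeptidases Ctsd and Ctsl at 0.87. Lyz1 and Lyz2 were at 0.98, within the limit on their probes given above. Over all 32 samples the 595 pairs had a median r of 0.44, with 265 above 0.5 and 31 below -0.5. The samples share slides, dyes and cell type, and these values are descriptions.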

How the data were processed

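RNA of 32 samples was hybridized on 16 two-color Agilent arrays on 2 slides (mm9 annotation), each channel being 1 sample. The authors deposited Feature Extraction 10.7.3.1 intensity values, from which the program had subtracted background and scaled the dyes, and a value table of quantile normalized intensity, which was used as an alternative and differed little from the values used here.

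Groups were taken from the labels. Processed signals were put on the log2 scale after leaving out control spots and outliers, averaged per probe, and quantile normalized over 32 channels. limma 3.58.1 (R 4.3.3) was fitted over the 8 groups on all 55681 probes, with Benjamini-Hochberg adjustment over all of them and a call at an adjusted p under 0.05. A probe counts as above background in a sample by the scanner program's own test. Where a gene was below background in a whole group, its difference is given as a bound. Precision is limited by 4 samples a group. The 35 genes, 8 gene lists and 10 marker lists were chosen with earlier results of these data known. For each comparison the called genes with the largest differences are named, up to 4 in each direction, together with Lyz1, Lyz2, Ctsb, Ctsd, Ctsk, Ctsl, Ctss and Cd68, and up to 3 called genes of a list; genes at a list's other end, and others named, were chosen after their values were seen. The fit was tested on simulated data. Alternatives changed the background correction, normalization, filter, probe, test, groups fitted, dyes, replicates, pairing and call limits; those on array 4, and on samples IT 2 and KC 3, were chosen after seeing the data. Protein and microRNA data were not analysed here.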

Additional observations from a re-analysis of the deposited data

Results flagged for a closer look

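Each group of 4 samples was tested for a sample that lay apart, by its gap to the nearest sample as a share of the group's range (Dixon's ratio, at its 95% limit). Of 280 groups 36 exceeded it, where chance gives about 1 in 20, and 11 of them were in KT 4, 8 in IC 4 and 6 in ET 2. No cause was tested.

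KT 4 was below the other KT samples in Lamp1 (0.999), Ctsh (0.966), Lyz2 (0.938), Lgmn (0.937), Ctsd (0.918), Ctsc (0.915), Lipa (0.901), Man2b1 (0.879) and Ctsl (0.838), and above them in Ctsk (0.936) and Cd63 (0.864). IC 4 was above the other IC samples in Ctsc (0.954), Ctsh (0.931), Asah1 (0.921), Lyz1 (0.882), Cd68 (0.878), Naglu (0.872), Lipa (0.835) and Ctss (0.83). These are the arrays whose difference ran against the others of their cell type. ET 2 was low in Npc2 (0.911), Naglu (0.864) and Ctsd (0.856) and high in Lipa (0.898), Gusb (0.873) and Lyz2 (0.851). KC 3 was low in Gusb (0.909), Cd68 (0.882) and Ctss (0.846), and KC 4 was high in Ctsw (0.948). TM 4 was high in Ctsb (0.959) and Lgmn (0.839). The single cases were Lyz2 high in EC 2 (0.847), Ctse low in EC 3 (0.876), Tpp1 low in IT 2 (0.838), Cd63 low in TP 3 (0.881) and Ppt1 low in TP 4 (0.884).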

How the results depend on the processing

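Of 190 alternatives to the counts of genes called, 159 stayed within 1.5 times, and none of 1450 alternatives to 84 log2 differences reversed a call, while 120 lost a call, 21 gained one and 64 changed sign with neither value called. The causes were not tested. Leaving out 1 replicate gave 13 to 19 calls in Kupffer vs endothelial (13 without replicate 1), 4 to 11 in Kupffer vs Ito (4 without replicate 1, 7 without replicate 2 or 4), 5 to 8 in endothelial vs Ito (5 without replicate 1 or 4), 26 to 27 in tumors vs Kupffer, 0 to 3 in Ito TME, 0 to 1 in Kupffer TME (3 and 1 without replicate 4), and 0 in endothelial TME and in TP vs TM. With the 75th percentile, endothelial vs Ito had 13 calls, 4 higher and 9 lower; this scaling moved the median of all probes by 0.22 in Kupffer vs endothelial, -0.24 in Kupffer vs Ito, -0.36 in endothelial vs Ito and 0.55 in tumors vs Kupffer. Fitting only the groups compared gave 6 calls in endothelial TME and 13 in endothelial vs Ito; the methods' t-test gave 5 and loess 1 in endothelial TME. With a 2-fold minimum 11, 1 and 3 calls were left in Kupffer vs endothelial, Kupffer vs Ito and endothelial vs Ito; with the study's limits (adjusted p under 0.001 and 4-fold) 1, 0 and 0, and 14 in tumors vs Kupffer. The Cy3 groups alone gave 11 calls in Kupffer vs endothelial and 4 in Kupffer vs Ito, the Cy5 groups 9, 6 and, in endothelial vs Ito, 3. Without array 4 of Ito and Kupffer cells there were 3 calls in Ito TME, 1 in Kupffer TME and 7 in Kupffer vs Ito; with its sign turned 4, 2 and, for Kupffer minus endothelial TME change, 1. Same-numbered samples did not deviate together throughout; with the replicate block the calls were 21, 11, 8 and 27 in the 4 comparisons of cell types and 0 elsewhere. The t-test and the probe choice were not run on the differences of TME changes. Signal over background limits Ctse throughout, Ctso in IT and tumors, and Ctsh, Ctsc, Ctsf and Ctsw in tumors.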
